A study of Mus musculus with 6 samples.

Results

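The Hox cluster genes were followed on all 6 arrays of a series on fibroblasts induced toward parvalbumin (PV) neurons. They were chosen by symbol alone, as every gene named Hox with a cluster letter from a to d and a number, and 36 such genes had a probe set with 1 gene symbol among 22180 genes. Hoxa11 and Hoxd4 were named only by probe sets that also carry another symbol and are not among them. The groups, with 1 array each, were induced cells sorted for green fluorescence (GFP+) at day 14, a sample that the labels call endogenous PV neurons (named here the endogenous-PV-labelled array), mouse embryonic fibroblasts (MEF), and unsorted induced PV (iPV) cells at days 3, 7 and 14. All 6 samples carry the labels of strain C57BL/6, a PV-GFP transgene and embryos of 13.5 days. They also share one protocol text in which fibroblasts in D10 medium are infected with adenovirus, the endogenous-PV-labelled and MEF samples included. The labels name neither the gene carried by the virus nor the promoter behind GFP. No group had a replicate, so nothing below was tested, and each difference describes the 2 arrays compared.

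Hox genes encode homeodomain transcription factors that give cells of the body their position along the head-to-tail axis. They lie in 4 clusters, HoxA to HoxD, and genes of like position in each cluster form 13 paralog groups. Low-numbered genes act from the hindbrain backward, middle ones in the neck and thorax, and high-numbered ones in the lumbar and sacral trunk, the limb ends and the tail. Fibroblasts keep the Hox pattern of the body site from which they come. Forebrain cells, among them the progenitors of cortical PV interneurons, lie in front of the Hox domain. Polycomb complexes keep silent Hox genes off, MLL complexes keep active ones on, and retinoic acid switches on the low-numbered genes first.

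The stretches just upstream of 6 Hox genes are shown because these genes stand for both directions of difference. Hoxa5, Hoxa6, Hoxb4 and Hoxc4 were at least 2-fold higher in sorted cells than in MEF, and Hoxa13 and Hoxd13 were at least 2-fold lower than MEF on other arrays. Each line gives 250 bases before the start site, 5′ to 3′ on the gene's strand, from RefSeq (GRCm38.p6), with CpG dinucleotides in capitals.
Hoxa5, chr6:52204588-52204837, minus strand: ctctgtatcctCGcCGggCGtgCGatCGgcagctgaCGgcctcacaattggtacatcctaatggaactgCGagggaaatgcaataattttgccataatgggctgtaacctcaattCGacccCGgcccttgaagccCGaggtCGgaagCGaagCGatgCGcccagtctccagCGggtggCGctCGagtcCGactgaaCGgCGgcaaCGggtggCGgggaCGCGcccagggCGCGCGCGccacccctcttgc
Hoxa6, chr6:52208673-52208922, minus strand: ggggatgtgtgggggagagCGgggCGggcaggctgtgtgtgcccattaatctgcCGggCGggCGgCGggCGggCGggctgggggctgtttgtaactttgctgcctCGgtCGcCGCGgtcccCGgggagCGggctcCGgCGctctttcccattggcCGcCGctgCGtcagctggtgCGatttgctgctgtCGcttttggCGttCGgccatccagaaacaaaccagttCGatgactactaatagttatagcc
Hoxb4, chr11:96318017-96318266, plus strand: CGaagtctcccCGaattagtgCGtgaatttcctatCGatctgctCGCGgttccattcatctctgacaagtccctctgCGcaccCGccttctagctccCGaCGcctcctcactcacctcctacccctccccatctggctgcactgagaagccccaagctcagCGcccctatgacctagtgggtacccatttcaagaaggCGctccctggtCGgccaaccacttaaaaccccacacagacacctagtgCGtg
Hoxc4, chr15:103034145-103034394, plus strand: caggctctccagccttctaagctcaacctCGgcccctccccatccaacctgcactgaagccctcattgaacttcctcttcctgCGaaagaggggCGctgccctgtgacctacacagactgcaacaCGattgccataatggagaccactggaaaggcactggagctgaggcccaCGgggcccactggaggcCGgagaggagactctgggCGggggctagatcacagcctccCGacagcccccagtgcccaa
Hoxa13, chr6:52260881-52261130, minus strand: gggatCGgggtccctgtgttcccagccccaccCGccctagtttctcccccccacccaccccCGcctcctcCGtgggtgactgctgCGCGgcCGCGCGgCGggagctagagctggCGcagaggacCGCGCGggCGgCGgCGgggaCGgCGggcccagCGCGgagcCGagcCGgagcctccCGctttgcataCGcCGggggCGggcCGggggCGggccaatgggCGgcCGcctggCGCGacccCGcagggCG
Hoxd13, chr2:74667975-74668224, plus strand: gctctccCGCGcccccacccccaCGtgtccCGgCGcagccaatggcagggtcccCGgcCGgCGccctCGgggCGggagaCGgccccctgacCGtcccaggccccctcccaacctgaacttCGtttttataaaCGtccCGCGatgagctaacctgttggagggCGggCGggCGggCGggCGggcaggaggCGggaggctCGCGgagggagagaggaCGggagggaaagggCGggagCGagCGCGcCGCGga

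These windows held 28 CpGs at Hoxa5, 24 at Hoxa6, 14 at Hoxb4, 8 at Hoxc4, 35 at Hoxa13 and 31 at Hoxd13. CpG-rich sequence at Hox genes is where Polycomb complexes are known to bind. RefSeq windows were at hand for 20 of the 36 members, 22 windows in all, with a median of 12.5 CpGs and a range of 2 to 35, beside a median of 6 over 32851 windows of all genes. Searched on both strands, TATAAA stood in 3 Hox windows, Hoxa10, Hoxb8 and Hoxd13, and in 12.4% of all windows. The sequence CAGCTG, a core bound by many helix-loop-helix factors, stood in those of Hoxa3, Hoxa5 and Hoxa6 and in 13% of all. AGGTCA, a half-site of nuclear receptors, stood in 5 Hox windows, among them Hoxb4 and Hoxc4, and in 14.0% of all. AGTTCA, another such half-site, stood in 2 Hox windows, Hoxc4 and Hoxd13, and in 11.8% of all. TGATTNAT, a form bound by Hox and Pbx proteins together, stood in 2, Hoxa2 and Hoxd11, and in 2.82% of all.

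Values are log2 intensities, and a level is compared between arrays for 1 probe set, never between genes. Before differences were taken, anything below 5.01, the median over probe sets that were not controls, was set to that floor. A fold that involves a value set to the floor is given as "at least". A gene was counted at a difference of 1 on the log2 scale, which is 2-fold. Neuronal and fibroblast markers were read on the same arrays. Of 16 PV neuron markers, 8 were above the floor in sorted cells, 10 on the endogenous-PV-labelled array and 7 in MEF. On all arrays 6 were under it, namely Gad2, Kcnc1, Kcnc2, Erbb4, Tac1 and Dcx. The GABA genes Gad1 and Slc32a1 were under it in sorted cells, with 4.68 and 4.46 there against 5.19 and 4.82 in MEF. In sorted cells 5 of the 16 were at least 2-fold higher than in MEF, beside 3.67% of all genes, and 0 lower, beside 1.64%. Snap25 was at least 8.24-fold, Hapln4 at least 3.03-fold, Tubb3 2.78-fold and Pvalb 2.09-fold higher. Syt1 was the other, with 6.38 in sorted cells against 5.38 in MEF. On the endogenous-PV-labelled array 1 of the 16 was at least 2-fold higher, beside 2.13% of all genes. It was Snap25, with 6.53 there against 4.44 in MEF, while Pvalb had 5.48 there against 5.23 in MEF. Of 13 fibroblast markers, 12 were above the floor in sorted cells, 13 on the endogenous-PV-labelled array and 13 in MEF. In sorted cells 0 of the 13 were at least 2-fold higher than in MEF, beside 3.67% of all genes. At least 2-fold lower there were 3 (Vim, Pdgfra and S100a4), beside 1.64%. On the endogenous-PV-labelled array 3 were higher (Col3a1, Dcn and Lum), beside 2.13%, and 2 lower (Vim and S100a4), beside 0.969%. In these bulk samples, fewer cells expressing a gene and less RNA per cell cannot be told apart. Whether these markers had a part in the Hox differences was not tested.

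Most Hox genes gave a signal on every array. Of the 36, 26 were above the floor on all 6 arrays, 7 on some arrays only, and 3 on none, namely Hoxb13, Hoxc11 and Hoxd1. The mean over the arrays was above the floor for 30 of the 36, beside 12600 of all 22180 genes. The number above the floor was 31 in sorted cells, 31 on the endogenous-PV-labelled array, 29 in MEF, 29 at day 3, 30 at day 7 and 28 at day 14. The endogenous-PV-labelled array therefore had as many Hox genes above the floor as any other. How many of all genes passed the floor on each single array, or on all 6, was not counted. The median over non-control probe sets ran from 4.96 at day 14 to 5.06 in MEF, beside the floor of 5.01. Of 12 forebrain interneuron regulators, 6 were under the floor on all 6 arrays, namely Dlx5, Dlx6, Nkx2-1, Sox6, Otx2 and Six3. Since many of all genes lay under this floor too, that count says little of forebrain genes.

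**Figure D1:**
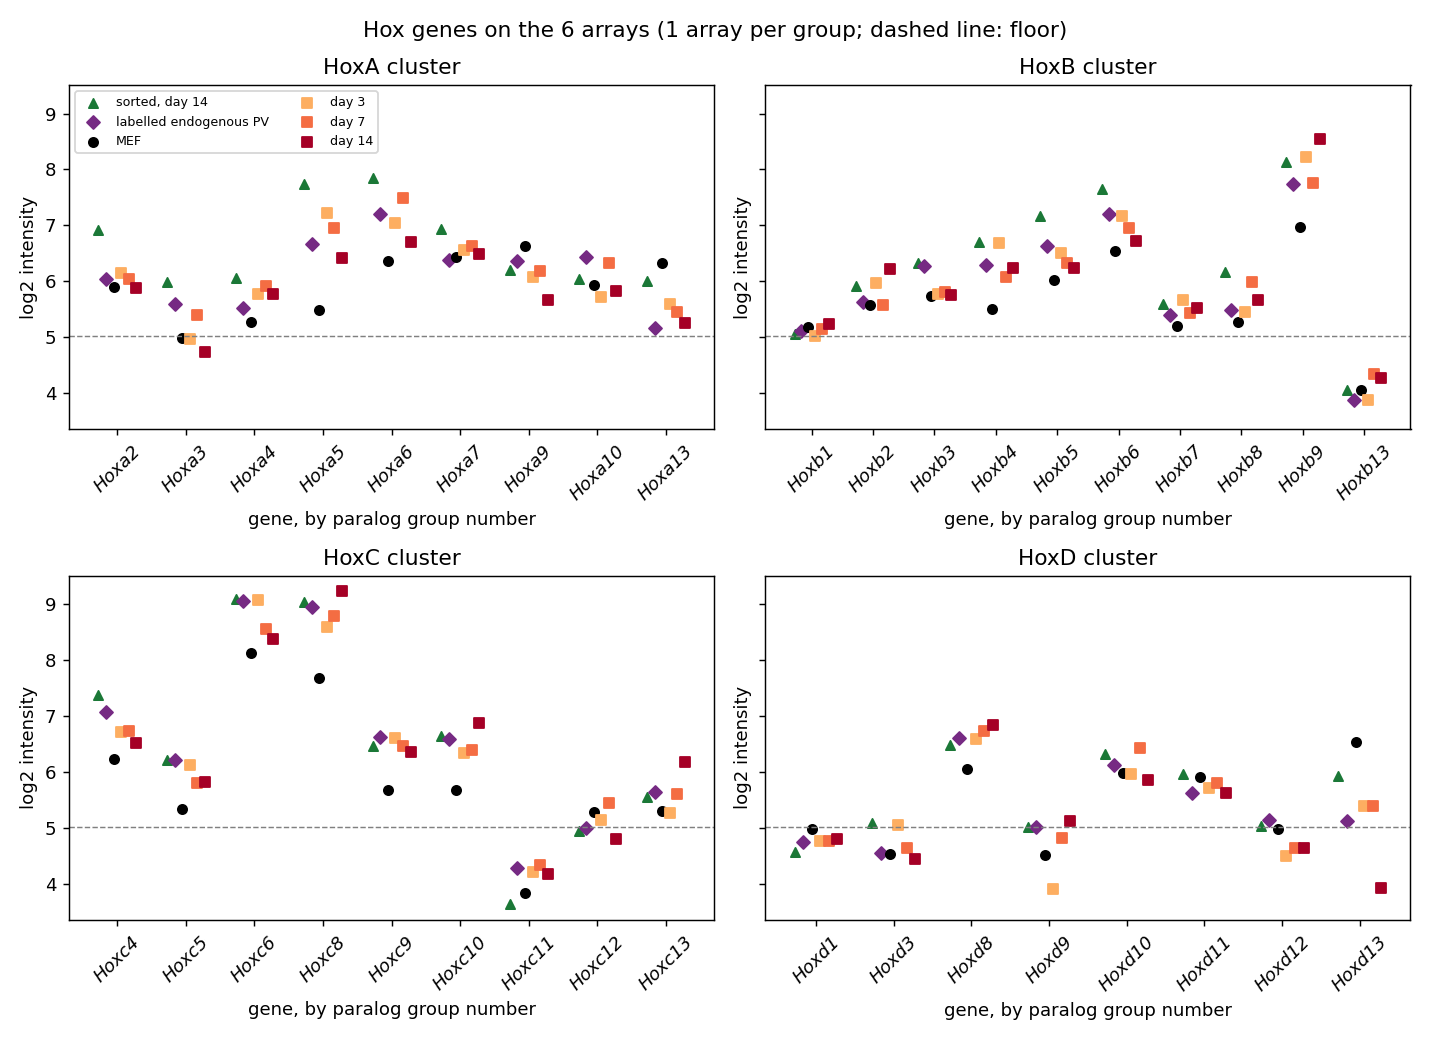
Log2 intensity of the 36 Hox genes on each array, 1 panel per cluster, with genes ordered by paralog group number and the floor of 5.01 dashed. Each point is 1 array. MEF (black) lies lowest for most genes of HoxB and HoxC and highest for Hoxa13 and Hoxd13, and levels are to be compared between arrays within a gene, not between genes.

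MEF was the array with the lowest value for 17 of the 36 Hox genes, against 20.8% of all genes. It had the highest value for 4, namely Hoxa9, Hoxa13, Hoxd1 and Hoxd13, against 17.8% of all genes. Sorted cells had the highest value for 15 of the 36, against 19.3% of all genes. The 17 included 7 of 10 HoxB genes and 6 of 9 HoxC genes, with 3 of 9 HoxA genes and 1 of 8 HoxD genes. In all, 12 Hox genes differed at least 2-fold in at least 1 of 7 comparisons, beside 9.22% of all genes. Of these comparisons, 5 share the MEF array and 3 share the sorted array, so they do not bear on each other independently.

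The sorted cells had higher Hox values than MEF over a wide stretch of the clusters. At least 2-fold higher were 9 of 36 Hox genes, beside 3.67% of all genes, and 0 were at least 2-fold lower, beside 1.64% of all genes. The 9 were Hoxa2, Hoxa5, Hoxa6, Hoxb4, Hoxb5, Hoxb6, Hoxb9, Hoxc4 and Hoxc8. The median log2 difference over all 36 was 0.46, and that over all genes was 0.00. Over the genes whose mean lay above the floor, 30 Hox genes had a median of 0.79 and all 12600 genes one of 0.10. When arrays were centred on housekeeping genes instead, the median of those 12600 genes moved to -0.20 and the Hox median over all 36 was 0.15, with 3 genes at least 2-fold higher (Hoxa5, Hoxa6 and Hoxc8), beside 1.98% of all genes, and 0 lower, beside 3.53%.

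On the endogenous-PV-labelled array, 2 Hox genes (Hoxa5 and Hoxc8) were at least 2-fold higher than in MEF, beside 2.13% of all genes. Another 2 (Hoxa13 and Hoxd13) were at least 2-fold lower, beside 0.969% of all genes. Its median over the 36 was 0.23. Day 3 had 3 higher (Hoxa5, Hoxb4 and Hoxb9), beside 1.43% of all genes, and 1 lower (Hoxd13), beside 1.64%. Day 7 had 3 higher (Hoxa5, Hoxa6 and Hoxc8), beside 1.7%, and 1 lower (Hoxd13), beside 0.843%. Day 14 had 3 higher (Hoxb9, Hoxc8 and Hoxc10), beside 2.1%, and 2 lower (Hoxa13 and Hoxd13), beside 1.26%. The medians over the 36 were 0.15 at day 3, 0.31 at day 7 and 0.15 at day 14. Under housekeeping centring, which brought the median of genes above the floor to -0.23 for the endogenous-PV-labelled array, -0.25 for day 3, -0.42 for day 7 and -0.40 for day 14, these Hox medians were 0.01, 0.00, -0.04 and -0.18. The median over all genes, floor included, was then 0.00, 0.00, -0.12 and -0.09 in the same order, so the Hox median at day 14 was below it. The counts at 2-fold after that centring were 0 higher and 2 lower on the endogenous-PV-labelled array, 1 and 2 at day 3, 1 and 2 at day 7, and 2 and 3 at day 14.

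**Figure D2:**
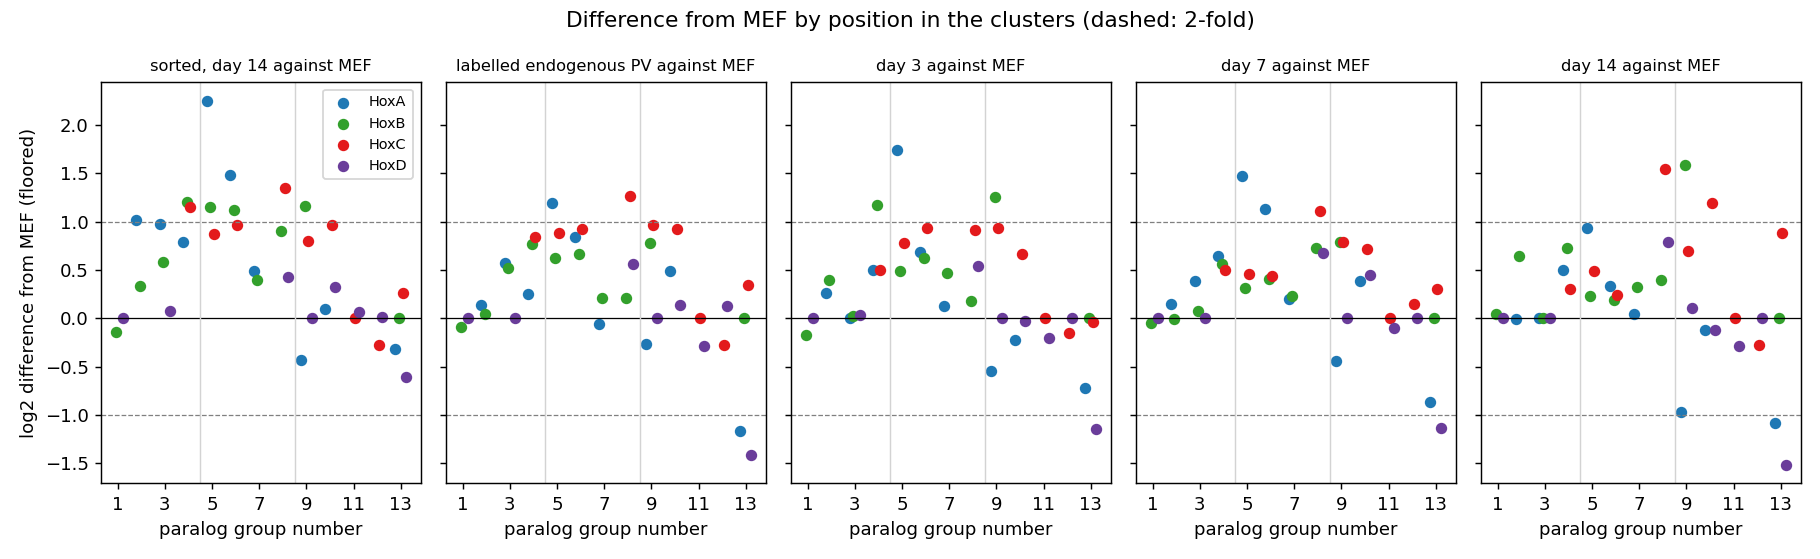
Log2 difference from MEF of each Hox gene, after the floor, against its paralog group number, 1 panel per array, coloured by cluster, with 2-fold dashed. Genes of groups 5 to 8 (between the vertical lines) lie above 0 in all panels except Hoxa7 on the endogenous-PV-labelled array, and Hoxa13 and Hoxd13 lie below 0 in each.

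The central genes, paralog groups 5 to 8, differed from MEF in one direction. All 11 were higher in sorted cells, with a median of 0.97 and 5 of them at least 2-fold, and 10 of 11 were higher on the endogenous-PV-labelled array, with a median of 0.66. All 11 were also higher at day 3, day 7 and day 14, with medians of 0.62, 0.46 and 0.34. Among all genes with a mean above the floor, 58.9% had a value in sorted cells above that in MEF. This share was 55.5% on the endogenous-PV-labelled array, 53.3% at day 3, 53.5% at day 7 and 58.4% at day 14. After housekeeping centring the central medians were 0.66 in sorted cells, 0.38 on the endogenous-PV-labelled array, 0.34 at day 3, 0.00 at day 7 and -0.15 at day 14, so the last did not keep its sign. MEF was the lowest of the 6 arrays for 10 of the 11, the exception being Hoxa7.

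Hoxa5, which patterns the neck and upper thorax and is needed for lung development, had the largest difference of any member once values under the floor were raised to it. Without the floor, Hoxd13 at day 14 differed from MEF by -2.61 on the log2 scale, beside 2.25 for Hoxa5 in sorted cells. Hoxa5 had 7.73 in sorted cells and 6.67 on the endogenous-PV-labelled array. Over the course Hoxa5 had 5.48 in MEF, 7.22 at day 3, 6.95 at day 7 and 6.41 at day 14. Sorted cells were thus the highest and MEF the lowest, and the 3 unsorted arrays lay between. The folds over MEF were 4.77 in sorted cells, 2.28 on the endogenous-PV-labelled array, 3.35 at day 3, 2.77 at day 7 and 1.90 at day 14. Its neighbour in the cluster, Hoxa6, had 7.84 in sorted cells and 7.20 on the endogenous-PV-labelled array, and 6.35 in MEF, 7.04 at day 3, 7.49 at day 7 and 6.69 at day 14. Hoxa6 was 2.80-fold higher in sorted cells and 2.20-fold higher at day 7 than in MEF. The next gene, Hoxa7, stayed between 6.38 and 6.93 on the 6 arrays, with 6.93 in sorted cells and 6.44 in MEF.

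In HoxB, Hoxb5 and Hoxb6 had the same order of arrays at both ends, sorted cells highest and MEF lowest. Hoxb5 had 7.17 in sorted cells and 6.64 on the endogenous-PV-labelled array, and 6.02 in MEF, 6.51 at day 3, 6.33 at day 7 and 6.24 at day 14. This was 2.23-fold higher in sorted cells than in MEF. Hoxb5 was the only member with a second probe set of its own, and that one ran the other way, with 5.25 in sorted cells against 5.42 in MEF. Hoxb6 had 7.65 in sorted cells and 7.19 on the endogenous-PV-labelled array, and 6.53 in MEF, 7.16 at day 3, 6.94 at day 7 and 6.72 at day 14, and was 2.17-fold higher in sorted cells than in MEF. Hoxb7 and Hoxb8 differed less, with 5.59 and 6.16 in sorted cells against 5.19 and 5.26 in MEF.

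Among the central HoxC genes, Hoxc8, which patterns the thorax and the motor neurons of the forelimb level, had 9.04 in sorted cells and 8.95 on the endogenous-PV-labelled array, and 7.68 in MEF, 8.59 at day 3, 8.79 at day 7 and 9.23 at day 14. MEF stood apart as the lowest, and the unsorted cells were higher at each later day. The folds over MEF were 2.55 in sorted cells, 2.40 on the endogenous-PV-labelled array, 1.88 at day 3, 2.15 at day 7 and 2.92 at day 14. Hoxc6, a thoracic gene, had 9.10 in sorted cells and 9.06 on the endogenous-PV-labelled array, and 8.13 in MEF, 9.07 at day 3, 8.56 at day 7 and 8.38 at day 14. Its differences from MEF were under 2-fold on every array, 0.97 in sorted cells being the highest. Hoxc5 had 6.21 in sorted cells against 5.33 in MEF, and Hoxd8, the central gene of HoxD, had 6.48 in sorted cells against 6.05 in MEF.

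The anterior genes, paralog groups 1 to 4, had their largest median difference from MEF in sorted cells. Of 10, 8 were higher there than in MEF and 3 at least 2-fold, beside 3.67% of all genes at 2-fold. The median there was 0.69, and 0.38 after housekeeping centring. The median was 0.19 on the endogenous-PV-labelled array, 0.15 at day 3, 0.11 at day 7 and 0.03 at day 14. After that centring it was -0.02, 0.02, -0.16 and -0.23 in the same order. By any amount, 7 of 10 were higher than MEF on the endogenous-PV-labelled array, 7 at day 3, 6 at day 7 and 6 at day 14. Of all genes with a mean above the floor, 58.6% were higher in sorted cells and 55.0% on the endogenous-PV-labelled array. At days 3, 7 and 14 the shares were 52.8%, 53.1% and 58.0%. Hoxa2, which gives the neural crest of the second pharyngeal arch its identity, had 6.91 in sorted cells and 6.03 on the endogenous-PV-labelled array, and 5.89 in MEF, 6.15 at day 3, 6.04 at day 7 and 5.88 at day 14. Sorted cells were alone in being high, 2.03-fold above MEF and 2.03-fold above unsorted day 14. Hoxa3, a gene of the third arch and thymus, had 5.99 in sorted cells against 4.99 in MEF, which is under the floor, so its difference was at least 0.98 on the log2 scale, and it passed 2-fold without the floor.

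Hoxb4, known for the expansion of blood stem cells, had 6.71 in sorted cells and 6.28 on the endogenous-PV-labelled array, and 5.51 in MEF, 6.68 at day 3, 6.07 at day 7 and 6.24 at day 14. It was 2.30-fold higher than MEF in sorted cells and 2.26-fold at day 3, and MEF was the lowest array. Hoxc4 had 7.37 in sorted cells and 7.07 on the endogenous-PV-labelled array, and 6.22 in MEF, 6.72 at day 3, 6.72 at day 7 and 6.52 at day 14. This was 2.22-fold higher in sorted cells than in MEF. The other anterior genes differed less. Hoxb1, a gene of the fourth segment of the hindbrain, stayed between 5.01 and 5.23 on the 6 arrays, and Hoxd3 between 4.44 and 5.08. Hoxa4 had 6.06 in sorted cells against 5.27 in MEF, and Hoxb3 had 6.32 in sorted cells against 5.74 in MEF. Hoxb2 lay between 5.57 at day 7 and 6.22 at day 14.

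The posterior genes, paralog groups 9 to 13, were split by cluster. Over all 15 the median difference from MEF was 0.01 in sorted cells, 0.00 on the endogenous-PV-labelled array, -0.03 at day 3, 0.00 at day 7 and 0.00 at day 14. Hoxb9, a thoracic gene, had 8.13 in sorted cells and 7.74 on the endogenous-PV-labelled array, and 6.97 in MEF, 8.22 at day 3, 7.75 at day 7 and 8.55 at day 14. MEF was the lowest and unsorted day 14 the highest, with folds over MEF of 2.24 in sorted cells, 2.38 at day 3 and 2.99 at day 14. Hoxc10, which acts at the lumbar level, had 6.64 in sorted cells and 6.60 on the endogenous-PV-labelled array, and 5.67 in MEF, 6.34 at day 3, 6.39 at day 7 and 6.87 at day 14. It was 2.29-fold higher at day 14 than in MEF. Hoxc9, which sets thoracic motor neurons apart from those of the limbs, had 6.46 in sorted cells against 5.67 in MEF.

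The last genes of HoxA and HoxD lay on the other side of MEF. Hoxd13, needed for digits, had 5.92 in sorted cells and 5.11 on the endogenous-PV-labelled array, and 6.53 in MEF, 5.38 at day 3, 5.40 at day 7 and 3.92 at day 14. MEF was the highest array and day 14 the lowest, under the floor. Relative to MEF it was 1.52-fold lower in sorted cells, 2.67-fold lower on the endogenous-PV-labelled array, 2.22-fold lower at day 3, 2.20-fold lower at day 7 and at least 2.86-fold lower at day 14. Hoxa13, its paralog in the limb end and the genital tract, had 6.01 in sorted cells and 5.16 on the endogenous-PV-labelled array, and 6.32 in MEF, 5.60 at day 3, 5.45 at day 7 and 5.24 at day 14. It was 2.24-fold lower on the endogenous-PV-labelled array and 2.12-fold lower at day 14 than in MEF. With a floor at percentile 75 (6.58), both genes were under it on all arrays and gave no difference.

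Other posterior genes of these clusters showed smaller differences. Hoxa9 had 6.19 in sorted cells and 6.36 on the endogenous-PV-labelled array, and 6.63 in MEF, 6.08 at day 3, 6.18 at day 7 and 5.66 at day 14, with MEF highest. Hoxa10, a gene of the uterus and the upper limb bones, lay between 5.71 at day 3 and 6.43 on the endogenous-PV-labelled array. Hoxd10 lay between 5.86 and 6.43 and Hoxd11, a gene of the forearm and kidney, between 5.62 and 5.97. Hoxd9 was above the floor on 2 arrays, Hoxd12 on 2 and Hoxc12 on 3, none by more than 0.43 on the log2 scale. Hoxc13, a gene of the hair follicle, was highest at day 14 with 6.17 and had 5.55 in sorted cells against 5.29 in MEF.

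Sorting on day 14 went with higher HoxA values. Sorted cells were higher than unsorted day 14 cells for all 9 HoxA genes. By any amount, 52.1% of all genes with a mean above the floor were higher there. The HoxA median was 0.77, and it was 0.67 after quantile normalization and 0.95 after housekeeping centring. HoxB had a median of 0.27, HoxC of 0.00 and HoxD of 0.04. At least 2-fold higher were 3 of 36 (Hoxa2, Hoxa5 and Hoxa6), beside 1.26% of all genes, and 0 were lower, beside 0.609%. After housekeeping centring 6 were higher, beside 2.10% of all genes, and 0 lower, beside 0.329%. Hoxa5 was 2.5-fold and Hoxa6 2.21-fold higher in sorted than in unsorted cells. By any amount, 8 of 36 Hox genes were lower in sorted than in unsorted cells, beside 6246 of 22180 genes. Their log2 differences were -0.62 for Hoxc13, -0.42 for Hoxb9, -0.36 for Hoxd8 and -0.31 for Hoxb2. For Hoxc10, Hoxc8, Hoxb1 and Hoxd9 they were -0.23, -0.20, -0.18 and -0.11.

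Against the endogenous-PV-labelled array, sorted cells differed less. Hoxa5 alone was at least 2-fold higher, 2.09-fold, beside 1.36% of all genes, and 0 of 36 were lower, beside 1.14%. After quantile normalization the Hoxa5 difference was 0.99, just under 2-fold. HoxC genes were close on the 2 arrays, with differences between -0.17 for Hoxc9 and 0.31 for Hoxc4. HoxA genes had a median of 0.55, from -0.39 for Hoxa10 to 1.06 for Hoxa5. Hoxa13 and Hoxd13 were higher in sorted cells, by 0.85 and 0.81 on the log2 scale.

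**Figure D3:**
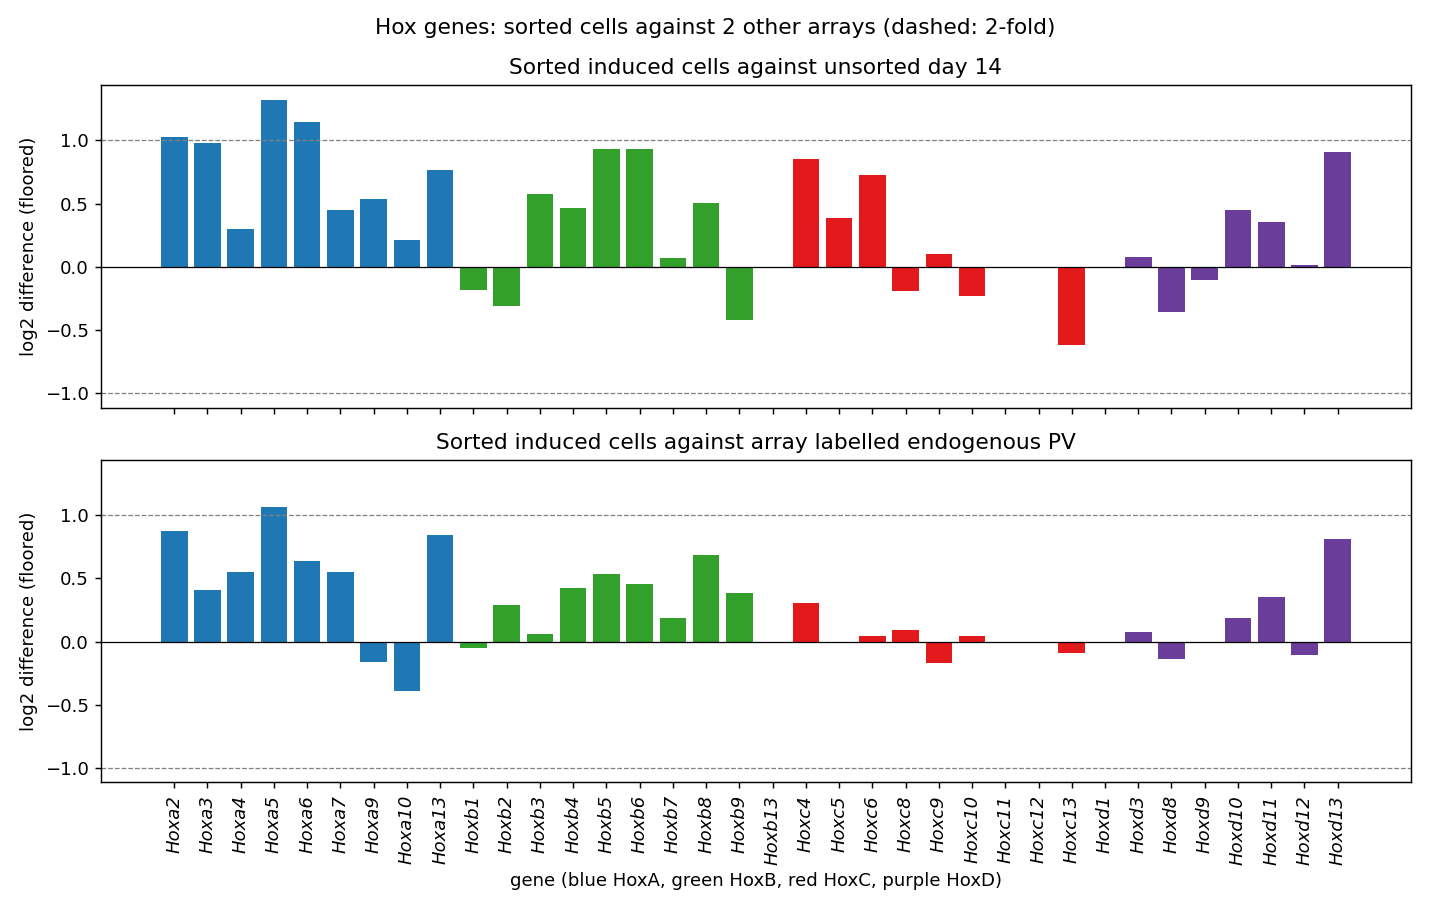
Log2 difference, after the floor, of each Hox gene in sorted induced cells against unsorted day 14 cells (top) and against the endogenous-PV-labelled array (bottom), coloured by cluster, with 2-fold dashed. In the top panel all 9 HoxA genes lie above 0, Hoxa5 highest at 1.32, and in the bottom panel HoxC genes lie near 0.

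The size of array error could be gauged only from genes with more than 1 probe set. For such a gene, the log2 differences of its 2 brightest probe sets were compared. The spread was the standard deviation of their disagreement, divided by the square root of 2. Against MEF it was 0.50 for sorted cells, 0.42 for the endogenous-PV-labelled array, 0.32 for day 3, 0.38 for day 7 and 0.43 for day 14. It was 0.33 for sorted against unsorted day 14 cells and 0.32 for sorted cells against the endogenous-PV-labelled array. In sorted cells against MEF, 9 Hox genes were higher by more than 2 such spreads and 0 lower, and 3.58% of all genes were higher by as much. On the endogenous-PV-labelled array 8 Hox genes were higher by more than 2 spreads and 2 lower, with 3.08% of all genes higher by as much. It says nothing of how cultures or animals vary.

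Probe sets shared with a neighbouring gene gave a partial second reading. The one named Hoxd4 and Hoxd3 had 6.31 in sorted cells and 6.49 on the endogenous-PV-labelled array, and 6.02 in MEF, 6.42 at day 3, 6.38 at day 7 and 6.16 at day 14. Here too MEF was lowest. The brighter probe set of Hoxa11 and its antisense gene Hoxa11os had 5.83 in sorted cells and 5.83 in MEF. The probe set shared by Hoxa3 and a second transcript had 6.01 in sorted cells and 6.05 in MEF, so it did not show the difference seen with the Hoxa3 probe set. Which of the 2 genes gave the signal of a shared probe set was not tested.

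The clusters also hold microRNA genes, shown because their seeds tie the clusters together. Mature sequences are from RefSeq (GRCm38.p6), with the seed, bases 2 to 8, in capitals.
miR-10b-5p, HoxD, chr2:74726074-74726096, plus strand: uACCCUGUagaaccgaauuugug
miR-10a-5p, HoxB, chr11:96317186-96317208, plus strand: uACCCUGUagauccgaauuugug
miR-196a-5p, HoxB copy, chr11:96265187-96265208, plus strand: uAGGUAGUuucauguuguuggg
miR-196b-5p, HoxA, chr6:52230129-52230150, minus strand: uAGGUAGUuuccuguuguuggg
The miR-10 pair shares one seed and the miR-196 genes another, and miR-196 is known to target Hoxb8. The arrays measured total RNA over the precursor genes, not the mature molecules. The Mir196a-1 probe set, from the HoxB copy, had 4.74 in sorted cells and 5.40 on the endogenous-PV-labelled array, and 4.90 in MEF, 6.02 at day 3, 5.32 at day 7 and 4.83 at day 14, so day 3 was highest. Its day 3 value was at least 2.01-fold above MEF. Mir196a-2, from HoxC, was lowest in sorted cells at 3.78 and highest in MEF at 5.16, and Mir10b was under the floor on all 6 arrays. The long noncoding RNAs Hotair of HoxC and Hoxaas3 of HoxA stayed between 4.62 and 5.09 and between 5.35 and 5.97.

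Hox proteins bind DNA with TALE cofactors of the Pbx, Meis and Pknox families. Of 8 measured, 2 were at least 2-fold higher in sorted cells than in MEF (Pknox2 and Meis2), beside 3.67% of all genes, and 0 lower, beside 1.64%, with a median of 0.51. On the endogenous-PV-labelled array 0 were higher, beside 2.13%, and 1 lower (Pbx3), beside 0.969%, with a median of 0.59. Pknox2 had 8.34 in sorted cells and 6.52 on the endogenous-PV-labelled array, and 5.89 in MEF, 7.12 at day 3, 6.48 at day 7 and 6.66 at day 14. It was 5.49-fold higher in sorted cells than in MEF and 3.22-fold higher than in unsorted day 14 cells. Meis2 had 9.33 in sorted cells and 8.92 on the endogenous-PV-labelled array, and 8.22 in MEF, 9.09 at day 3, 8.83 at day 7 and 8.68 at day 14. Meis1 was highest at day 7, with 8.83 against 7.66 in MEF. Pbx3 went the other way, with 6.71 in sorted cells and 6.30 on the endogenous-PV-labelled array, and 7.38 in MEF, 6.34 at day 3, 6.76 at day 7 and 6.24 at day 14.

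Polycomb and MLL complexes are the best-known chromatin regulators of the clusters. Of 20 genes of Polycomb complexes, 0 differed 2-fold in any of the 7 comparisons, beside 9.22% of all genes, a share at which few of 20 would. The median was -0.01 in sorted cells and -0.03 on the endogenous-PV-labelled array. Suz12, a core subunit of the complex that methylates histone H3, had 6.83 in sorted cells and 6.78 on the endogenous-PV-labelled array against 7.63 in MEF. Pcgf2, a subunit of the other complex, had 5.74 in sorted cells and 6.03 on the endogenous-PV-labelled array against 5.07 in MEF. Of 10 genes of MLL complexes and H3K27 demethylases, 1 was at least 2-fold higher in sorted cells than in MEF, beside 3.67% of all genes, the demethylase Kdm6b with 9.15 in sorted cells against 8.10 in MEF. Kmt2a, which encodes MLL1, had 8.91 in sorted cells against 7.75 in unsorted day 14 cells and 8.25 in MEF.

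Retinoic acid is the best-known signal upstream of the clusters. Of 20 upstream genes measured, 4 were at least 2-fold higher in sorted cells than in MEF, beside 3.67% of all genes, and 1 lower, beside 1.64%, with a median of 0.13. On the endogenous-PV-labelled array 2 were higher, beside 2.13%, and 1 lower, beside 0.969%, with a median of 0.26. Rarb, a retinoic acid receptor that is itself a target of retinoic acid, had 8.04 in sorted cells and 7.23 on the endogenous-PV-labelled array, and 4.74 in MEF, 7.87 at day 3, 7.25 at day 7 and 8.43 at day 14. MEF was under the floor and the other 5 arrays well above it, so the folds over MEF were at least 8.16 in sorted cells, 4.65 on the endogenous-PV-labelled array, 7.25 at day 3, 4.72 at day 7 and 10.7 at day 14. Cyp26b1, which breaks retinoic acid down, had 9.50 in sorted cells and 8.61 on the endogenous-PV-labelled array, and 6.77 in MEF, 7.85 at day 3, 8.80 at day 7 and 9.44 at day 14. It was 6.67-fold higher in sorted cells than in MEF.

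Of the 2 cytosolic retinoic acid carriers, Crabp2 had 9.74 in sorted cells and 8.12 on the endogenous-PV-labelled array against 7.61 in MEF, and Crabp1 had 8.29 in sorted cells and 8.48 on the endogenous-PV-labelled array against 9.93 in MEF. Gdf11, a secreted factor that sets the boundary of the posterior Hox genes in the trunk, had 8.53 in sorted cells and 8.14 on the endogenous-PV-labelled array against 7.28 in MEF. The synthetic enzyme Aldh1a2 had 5.24 in sorted cells and 6.06 on the endogenous-PV-labelled array against 5.45 in MEF, a difference under 2-fold on both. The Cdx genes Cdx1 and Cdx4 were under the floor on all arrays. Whether these genes acted on the clusters was not tested.

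**Figure D4:**
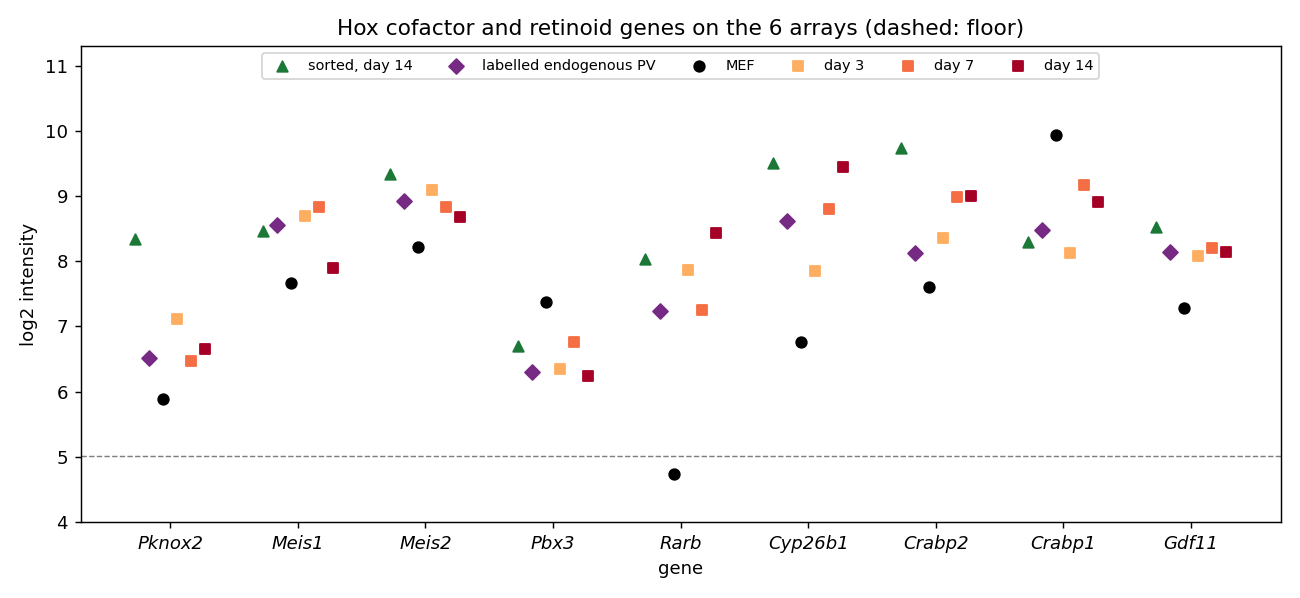
Log2 intensity of 4 TALE cofactor genes, 4 retinoic acid genes and Gdf11 on each array, 1 point per array, with the floor of 5.01 dashed. Rarb and Cyp26b1 lie lowest in MEF (4.74 and 6.77), Crabp1 and Pbx3 lie highest there, and Pknox2 is highest in sorted cells at 8.34.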

How the data were processed

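The authors deposited 1 table of log2 intensities of 41345 probe sets on 6 arrays, made from 6 µg of total RNA each, per the labels' protocols. The submitters' processing notes list Affymetrix Expression Console. Its version and settings, and the build, were not given in the sources used here. That the deposited values are log2 was judged from their range. Probe sets numbered below the first annotated one (5333) were left out as controls. Names came from the platform annotation, where 23521 probe sets had 1 symbol, 1814 several and 10677 were unnamed here. Each gene was represented by its probe set with 1 symbol and the highest mean, and all 36 Hox symbols matched RefSeq by Entrez identifier. Values under the median of the remaining probe sets were raised to it, and differences of log2 values were counted at 2-fold with no test, over 22180 genes. Precision is limited by the single array in each group. Sets were described by counts and medians beside all genes. Genes named are every member, and up to 4 of each other list by size of difference from MEF in sorted cells or on the array labelled endogenous PV, while other list genes named (Gdf11, Aldh1a2, the Cdx genes, cell type markers and forebrain genes under the floor) were chosen after their values were seen. Members and lists were chosen with earlier results of these data known. The 6 alternatives were quantile normalization, housekeeping centring, no floor, a floor at percentile 75, the mean of probe sets and a 1.5-fold threshold. Calculations used Python 3.11.15 with numpy 2.4.6 and pandas 2.3.3, and were checked on simulated arrays with planted changes.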

Additional observations from a re-analysis of the deposited data

How the results depend on the processing

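No paired analysis was possible because each group had 1 array. Over the alternatives the Hox median against MEF ran between 0.00 and 0.52 in sorted cells, between 0.00 and 0.39 on the endogenous-PV-labelled array, and between 0.00 and 0.31 at day 3. Sorted cells had medians between 0.00 and 0.51 against unsorted day 14 cells and between 0.00 and 0.19 against the endogenous-PV-labelled array. The values of 0.00 came with the floor at percentile 75, and at day 3 with housekeeping centring too. Those that turned their direction were the median differences from MEF after housekeeping centring, -0.039 at day 7 and -0.18 at day 14, where all genes shifted down as well. Counts of Hox genes at least 2-fold apart moved too, among them the following. For sorted cells against MEF, quantile normalization gave 7, all higher, beside 2.86% of all genes higher. Hoxa2 and Hoxb6 were then at 0.92 and 0.95 on the log2 scale, under 2-fold. In that comparison the mean of probe sets gave 8 higher and no floor 10, beside 3.53% and 4.45%. After housekeeping centring the counts were 3 for sorted cells and 2 for the endogenous-PV-labelled array against MEF. The count was 6 for sorted against unsorted day 14 cells. The shares of all genes after that centring are given above for sorted cells against MEF and against unsorted day 14 cells. For the endogenous-PV-labelled array against MEF, 1.15% of all genes were then higher and 2.52% lower. With no floor there were 5 for sorted against unsorted day 14 cells, all higher, beside 1.92% of all genes higher and 1.47% lower. The floor at percentile 75 gave 1 for day 3, 1 for day 7 and 2 for day 14 against MEF, all higher. Of all genes 0.744%, 1.01% and 1.22% were then higher. The same floor gave 5 for sorted cells and 1 for the endogenous-PV-labelled array against MEF, all higher, beside 1.97% and 1.24%. The medians with it were 0.00, since fewer members lay above it. Quantile normalization gave 0 for sorted cells against the endogenous-PV-labelled array, beside 1.13% of all genes higher and 1.19% lower. Against MEF a 1.5-fold threshold gave 18 in sorted cells and 14 on the endogenous-PV-labelled array. It gave 12 at day 3, 11 at day 7 and 12 at day 14. It gave 11 for sorted against unsorted day 14 cells and 6 for sorted cells against the endogenous-PV-labelled array. In the same order 17, 12, 10, 9, 9, 10 and 6 of these were higher. Of all genes 9.93%, 6.34%, 5.05%, 5.09%, 7.09%, 4.94% and 4.85% were higher. Hox genes lower were 1, 2, 2, 2, 3, 1 and 0. Of all genes 4.68%, 4.03%, 4.75%, 3.94%, 4.22%, 2.96% and 2.91% were lower. Of the values of the 12 Hox genes at least 2-fold apart in any comparison, 355 moved by less than the technical spread and 65 by more, and 0 of those called at 2-fold turned their direction. Members near the floor carry little signal over background, so their differences are the least certain.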

Other observations

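Of 8 regional genes of the limb and body wall (Tbx3, Tbx4, Tbx5, Pitx1, Shox2, Lmx1b, Tbx15 and Tbx18), 0 differed 2-fold in any of the 7 comparisons, beside 9.22% of all genes, so the count says little of them. Their median difference from MEF was -0.09 in sorted cells and -0.26 on the endogenous-PV-labelled array. Tbx5, a forelimb gene, had 6.68 in sorted cells and 6.77 on the endogenous-PV-labelled array against 6.30 in MEF. Shox2, a gene of the upper limb segment, had 6.71 in sorted cells and 6.85 on the endogenous-PV-labelled array against 7.18 in MEF. Tbx3 had 7.63 in sorted cells and 7.56 on the endogenous-PV-labelled array against 6.77 in MEF.

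Of 12 forebrain interneuron regulators, 0 differed 2-fold in any of the 7 comparisons, beside the same 9.22%. Dlx2 had 5.78 in sorted cells and 4.84 on the endogenous-PV-labelled array against 5.88 in MEF. Emx2, a gene of the dorsal forebrain and the urogenital tract, had 6.75 in sorted cells and 7.06 on the endogenous-PV-labelled array, and 6.78 in MEF, 6.86 at day 3, 7.34 at day 7 and 7.54 at day 14. Lhx6, which marks the interneuron lineage of the medial ganglionic eminence, had 5.48 in sorted cells and 5.78 on the endogenous-PV-labelled array, and 5.53 in MEF, 5.91 at day 3, 5.88 at day 7 and 6.16 at day 14.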
